A study of Rattus norvegicus with 8 samples.

Results

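Cidea and 9 other genes that build, coat or empty lipid droplets were followed in the livers of rats that drank hydrogen water or plain water. The members were chosen by gene symbol: all probe sets whose single annotated symbol is Cidea, Cideb, Cidec, Plin2, Plin5, Dgat1, Dgat2, Pnpla2, Pnpla3 or Mgll. This gave 17 probe sets for 10 genes, out of 20826 probe sets for 14217 genes with a single symbol on the array. A probe set is a group of short probes directed at 1 transcript. The gene group was drawn up around Cidea because its signal was higher with hydrogen water in these same arrays, so the Cidea values below are a description and carry no test.

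The animals were male rats of the outbred Sprague-Dawley strain, given as 8 weeks old. The hydrogen water group had drunk hydrogen-saturated water with 0.7 mM dissolved molecular hydrogen, and the control group sterilized distilled water, in both cases freely for 4 weeks and on the same commercial diet. The study kept 8 rats per group, and 4 arrays per group were read. Which rat an array stands for, and whether RNA was pooled, is not in the labels, so p-values measure only how far these arrays scatter. Signals are MAS5 intensities brought to a common distribution by quantile normalization, and changes are hydrogen water minus control on the log2(signal + 2.05) scale.

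Lipid droplets are stores of triglyceride under a single layer of phospholipid and coat proteins. The enzymes encoded by Dgat1 and Dgat2 join a fatty acid to diacylglycerol, which completes triglyceride. The CIDE proteins, encoded by Cidea, Cideb and Cidec, gather where droplets touch and pass lipid into the larger one. Perilipins such as Plin2 and Plin5 coat the surface, and lipases, with adipose triglyceride lipase (Pnpla2) at the start and monoacylglycerol lipase (Mgll) at the end, release the fatty acids. In mice, Cidea is best known from brown fat, Cidec from white fat and Cideb from liver, where it helps to load lipid onto very low density lipoprotein.

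The arrays carried the signature of liver. All 9 measured hepatocyte markers, albumin among them, lay above the filter, which keeps the brighter-than-median part of the array by mean log2 signal, and their summed signal ran from 61994 to 65955 in hydrogen water arrays and from 59449.8 to 64697 in control arrays. Before normalization the hydrogen water arrays were dimmer on average. Their 2% trimmed mean signal was 91.5 ± 10.4, against 115 ± 18.7 in controls (SD, n = 4 each, exact permutation p = 0.114, two-sided). The groups overlapped, at 80.3 to 103 in hydrogen water arrays and 94.5 to 132 in control arrays. No batch is given in the labels. Of all 15521 probe sets tested, 0.825% passed an adjusted p of 0.05 in limma, and the groups did not overlap at 7.48%. The 128 calls behind the first share became 61, 153, 55 or 71 without hydrogen water array 1, 2, 3 or 4. They became 87, 61, 197 or 58 without control array 1, 2, 3 or 4.

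Cidea was the member with the largest difference among those above the filter. Its normalized signal was 204.2, 238.4, 238.7 and 210.4 in hydrogen water arrays 1 to 4, against 134.4, 89.3, 88.3 and 101.6 in control arrays 1 to 4. Every hydrogen water array lay above every control array; control array 1 was the highest of the controls. The means were 222.9 ± 18.2 with hydrogen water and 103.4 ± 21.5 in controls (SD, n = 4 each), a log2 difference of 1.11 ± 0.14 (SE) or 2.16-fold. In the deposited signals, before normalization, Cidea had 155.6, 226.0, 193.8 and 208.9 in hydrogen water arrays and 172.6, 82.7, 112.7 and 104.6 in control arrays. There the groups overlapped through control array 1, one of the 2 brightest arrays, and the difference was 0.76 ± 0.22 (SE). Without normalization the median of all tested probe sets was itself at −0.33, and Cidea stood 1.09 above it, against 1.11 above the median after normalization. Leaving out each array in turn gave differences from 1.04 to 1.24.

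**Figure D1:**
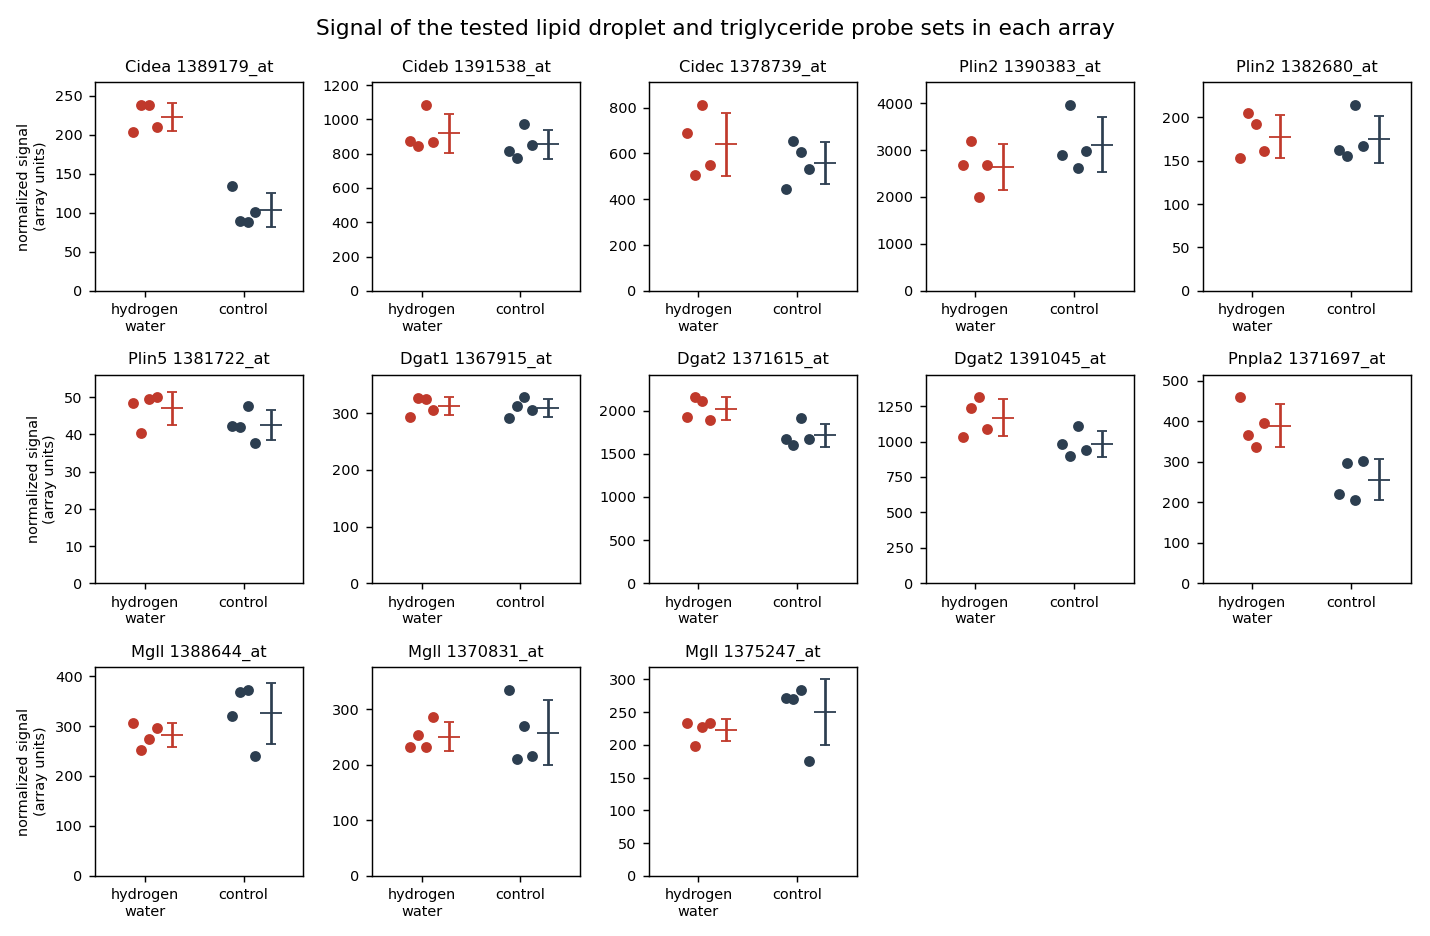
Normalized signal (array units, linear axis from 0) of the 13 member probe sets above the filter, with 1 point per array and, beside the points, the mean with SD of 4 arrays. Cidea and Pnpla2 are the panels in which the hydrogen water arrays (red, left) all lie above the control arrays (dark, right).

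Upstream sequences of 3 members are shown, those of Cidea and Pnpla2, whose groups did not overlap, and that of Cideb, the liver member of the CIDE family, whose groups did. Each is the stretch of 250 bases before the annotated start in RefSeq (GRCr8), read 5′ to 3′ along the gene's strand, with capitals for matches to the GC-rich SP1 motif GGGCGG on either strand. The Cidea stretch lies at chr18:63164567-63164816 on the plus strand, that of Pnpla2 at chr1:205982029-205982278 on the plus strand and that of Cideb at chr15:33226408-33226657 on the minus strand.
Cidea: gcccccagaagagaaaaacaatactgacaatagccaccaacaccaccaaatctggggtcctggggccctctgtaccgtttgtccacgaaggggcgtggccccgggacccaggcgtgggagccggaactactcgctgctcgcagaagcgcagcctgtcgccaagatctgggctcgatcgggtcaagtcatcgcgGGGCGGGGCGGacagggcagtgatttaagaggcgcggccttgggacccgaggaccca
Pnpla2: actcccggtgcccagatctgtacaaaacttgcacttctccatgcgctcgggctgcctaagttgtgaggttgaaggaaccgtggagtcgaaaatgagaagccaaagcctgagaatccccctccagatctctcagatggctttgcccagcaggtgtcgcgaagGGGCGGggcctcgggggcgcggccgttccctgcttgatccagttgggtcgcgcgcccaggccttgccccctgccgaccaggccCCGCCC
Cideb: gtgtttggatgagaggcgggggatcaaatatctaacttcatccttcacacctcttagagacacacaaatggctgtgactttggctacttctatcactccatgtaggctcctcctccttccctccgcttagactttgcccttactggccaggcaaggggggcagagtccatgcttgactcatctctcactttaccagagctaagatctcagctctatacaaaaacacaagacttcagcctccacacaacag

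Cidea held 2 matches to GGGCGG, which begin 57 and 52 bases before the start and overlap by 1 base, and Pnpla2 held 2, on opposite strands. Cideb held none. The motif occurs in 30.5% of all 33469 stretches of this length in the table and in 6 of the 8 member genes that the table holds. Plin2, Plin5, Pnpla3 and Mgll held it too, and their groups overlapped at every probe set. Cidec, whose groups overlapped, held none. A TATA box (TATAAA, in 12.9% of all stretches), the nuclear receptor motif AGGTCA (14.1%), the E-box CACGTG (5.59%) and the STAT motif TTCNNNGAA (7.67%) were also searched on both strands. None of these letters occurs in the 3 stretches shown.

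Neither of the other CIDE genes passed. Cideb had a normalized signal of 874.3, 844.2, 1086 and 870.4 in hydrogen water arrays and 814.2, 775.2, 975.2 and 852.8 in control arrays. The groups overlapped, and the log2 difference was 0.10 ± 0.10 (SE; 95% interval −0.12 to 0.33; limma adjusted p = 0.765). Cidec, called FSP27 in mouse fat, had 688, 507.8, 813.4 and 549.2 in hydrogen water arrays and 446, 654.8, 604.8 and 531.6 in control arrays. Its arrays scattered widely in both groups, with a difference of 0.18 ± 0.16 (SE; 95% interval −0.17 to 0.54; adjusted p = 0.724). The 95% intervals reach from 0.92-fold to 1.26-fold for Cideb and from 0.89-fold to 1.45-fold for Cidec.

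A ratio of 2 probe sets within an array does not depend on how arrays are scaled, and the deposited signals were used for it. The log2 ratio of Cidea to Cideb was −2.06 ± 0.18 with hydrogen water and −3.04 ± 0.36 in controls (SD, n = 4 each), with no overlap between groups. The ratio of Cidea to Dgat1 was −0.49 ± 0.05 with hydrogen water and −1.59 ± 0.36 in controls (SD, n = 4 each). Of the ratios of Cidea to the 12 other member probe sets above the filter, 10 did not overlap between groups, and those to Cidec and Pnpla2 did. All 12 mean ratios were higher with hydrogen water, by 0.49 for Pnpla2 and by 0.80 to 1.31 for the others. All 12 ratios share the Cidea signal, so they are not separate observations. How often the ratio of Cidea to any other probe set of the array separates the groups was not counted. Because Cidea was picked for its difference, these ratios describe the arrays and were not tested.

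**Figure D2:**
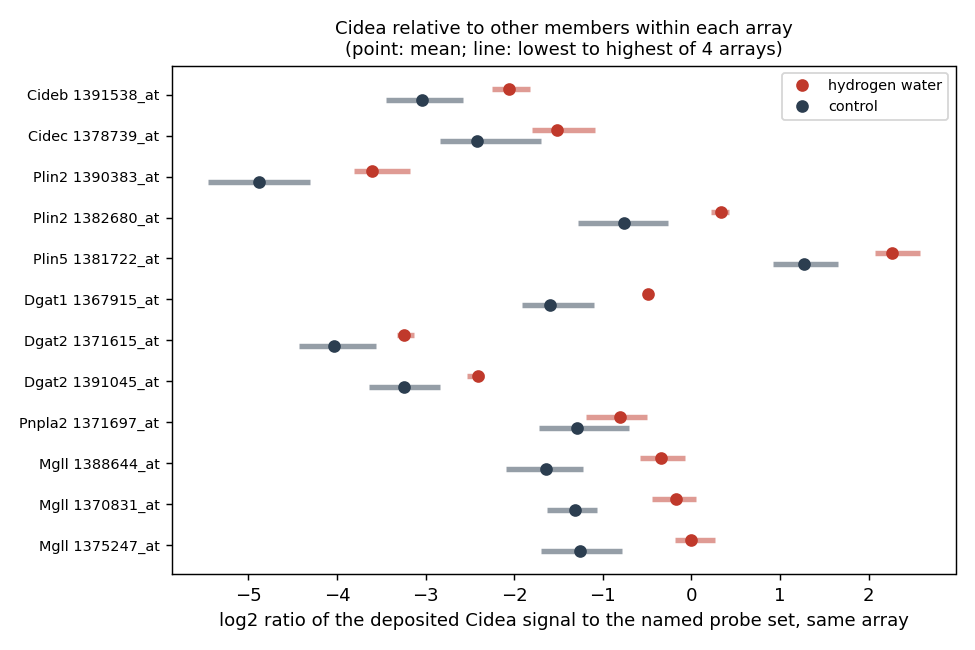
Log2 ratio of the deposited Cidea signal to that of each other member probe set in the same array, as the mean (point) and the range over 4 arrays (line). The ranges for hydrogen water (red) and control (dark) are apart at 10 of the 12 probe sets and overlap at Cidec and Pnpla2.

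Neither droplet coat gene passed in limma. Plin2, the perilipin found on droplets of most cells, had 2683, 3199, 1998 and 2686 in hydrogen water arrays and 2887, 3966, 2622 and 2980.1 in control arrays at its brighter probe set. The groups overlapped, and the difference was −0.24 ± 0.15 (SE; adjusted p = 0.582). At the dimmer Plin2 probe set the means were 177.6 ± 24.6 with hydrogen water and 174.6 ± 27.1 in controls (SD, n = 4 each), a difference of 0.03 ± 0.14 (SE; limma adjusted p = 0.973). The probe sets of Plin2 thus differed in sign, and neither passed. Plin5, which ties droplets to mitochondria in tissues that burn fat, had 48.3, 40.3, 49.5 and 50 in hydrogen water arrays and 42.2, 42.1, 47.7 and 37.8 in control arrays. Its groups overlapped as well, with a difference of 0.14 ± 0.14 (SE, limma adjusted p = 0.770). The 95% intervals reach from 0.67-fold to 1.07-fold and from 0.83-fold to 1.25-fold for the brighter and dimmer Plin2 probe sets. For Plin5 the interval reaches from 0.89-fold to 1.37-fold.

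Of the enzymes that complete triglyceride, neither gene passed. Dgat1 had 294.1, 326.6, 324.2 and 306 in hydrogen water arrays and 290.8, 313.6, 328.3 and 305.2 in control arrays. The difference of 0.02 ± 0.09 (SE; adjusted p = 0.975) had a 95% interval from 0.89-fold to 1.15-fold. Dgat2, the form that in mice accounts for most liver triglyceride made from new fatty acids, was measured by a pair of probe sets. The first gave 1924, 2156, 2114 and 1889 in hydrogen water arrays and 1672, 1604, 1909.5 and 1675 in control arrays, overlapping only through control array 3 and hydrogen water array 4. The second gave 1032, 1235, 1313 and 1088 in hydrogen water arrays and 982.7, 897.1, 1108 and 943.2 in control arrays. Both differed by 0.24 (SE 0.08 and 0.10), with limma adjusted p-values of 0.212 and 0.326. Their unadjusted p-values were 0.0103 and 0.0294. The 95% interval of the first ran from 1.05-fold to 1.33-fold.

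Among the lipase genes, Pnpla2 had groups that did not overlap, yet it did not pass. Pnpla2 encodes adipose triglyceride lipase, which removes the first fatty acid from triglyceride. Its signal was 459.7, 366.3, 336 and 394.9 in hydrogen water arrays and 220.4, 297.1, 205.3 and 302 in control arrays. Hydrogen water array 3 was the lowest of its group and control array 4 the highest of the controls. The difference was 0.61 ± 0.15 (SE; 95% interval 0.28 to 0.94) or 1.53-fold, with an unadjusted p of 0.0018 and a limma adjusted p of 0.0910. It passed in none of the 21 alternative fits, where the adjusted p ran from 0.0828 to 0.553. Without normalization the difference was 0.28.

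Mgll, whose enzyme cleaves the last fatty acid from glycerol and also degrades an endocannabinoid, was measured by 4 probe sets. The first gave 306.1, 252, 274.8 and 296.6 in hydrogen water arrays and 320.7, 367.2, 372.8 and 240.4 in control arrays, with control array 4 below all the others. The 3 probe sets above the filter differed by −0.19 ± 0.14, −0.02 ± 0.15 and −0.14 ± 0.15 (SE), with limma adjusted p-values from 0.672 to 0.980. The control arrays scattered more than the hydrogen water arrays at all 3, with SDs of 0.29 to 0.32 against 0.11 to 0.14 on the log2 scale. The fourth probe set lay below the filter, at 10.4, 11.4, 13.6 and 10.3 in hydrogen water arrays and 20.5, 15, 1.9 and 6.3 in control arrays.

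Pnpla3, a droplet protein whose human gene is known from inherited fatty liver, could not be followed. None of its 3 probe sets passed the filter. Their signals ran from 0.3 to 14.5 in hydrogen water arrays and from 0.5 to 8.3 in control arrays, and their mean levels ranked between the percentiles 6.3 and 10.3 of all probe sets. Without detection calls such signals cannot be set apart from background. Fitted without a filter, the differences were 0.16, −0.46 and 0.75, with SEs of 0.60, 0.53 and 0.45 and limma adjusted p-values from 0.696 to 0.974.

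**Figure D3:**
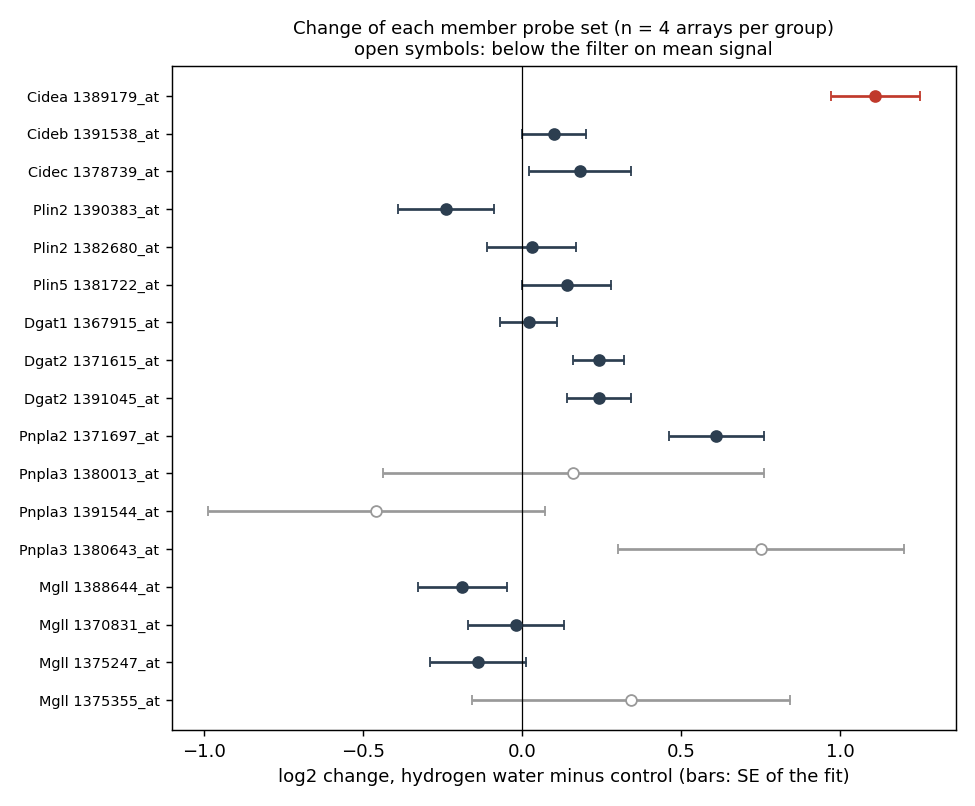
Log2 change (hydrogen water minus control) with the SE of the fit for all 17 member probe sets. Cidea (red) lies at 1.11, Pnpla2 at 0.61 and the other filled symbols between −0.24 and 0.24, while the 4 open symbols are probe sets below the filter.

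Over the members, 13 of 17 probe sets, for 9 of the 10 genes, were above the filter. Apart from Cidea, 0 of 12 passed in limma, against 0.825% of all tested probe sets, and 3 had an unadjusted p under 0.05, those of Dgat2 and Pnpla2, against 12.5% of all tested probe sets. Groups that did not overlap were found at 1 of these 12, that of Pnpla2, against 7.48% of all tested probe sets. The 12 changes had a median of 0.06, with 8 above 0 and 4 below (7 of the 8 fell below 0 without normalization), and the median over all tested probe sets was 0.00. The counts that passed and that did not overlap were near the shares of the whole array.

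The wider pathway was read through 67 other genes, 66 of them measured, in 4 lists of triglyceride synthesis, droplet coats and growth, lipolysis and secretion, and regulators and uptake. Of the 57 above the filter, 1 rose, 0 fell and 56 did not pass in limma; at an unadjusted p under 0.05 there were 10. Of all tested probe sets, 0.825% passed, and 12.5% reached 0.05 before adjustment. The median change was 0.02. The gene that rose was Pcyt1a, whose enzyme sets the rate of phosphatidylcholine synthesis and binds to growing droplets. Pcyt1a had 307.5, 243.2, 353.9 and 300 in hydrogen water arrays and 164, 176.6, 181.9 and 161 in control arrays. Every hydrogen water array lay above every control array, and the difference was 0.80 ± 0.12 (SE; limma adjusted p = 0.0139). It missed the threshold without control array 4 (adjusted p = 0.0525), without normalization (0.155) and with array brightness as a covariate (0.144).

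In triglyceride synthesis 0 of 15 genes passed by limma, and 2 reached 0.05 before adjustment, against 12.5% over the array. Lpin1, whose phosphatase makes diacylglycerol, had 3046, 1366, 1982 and 1412 in hydrogen water arrays and 759.2, 652.3, 1784 and 394.9 in control arrays. Control array 3 lay within the hydrogen water range. The difference of 1.26 ± 0.39 (SE, limma adjusted p = 0.195) became 1.67 ± 0.29 (SE, limma adjusted p = 0.0243) without that array. Without control array 3 the calls over all tested probe sets also rose, from 128 to 197. Lpin1 passed in no other fit that left out 1 array. Its relative Lpin2 differed by 0.49 ± 0.17 (SE; adjusted p = 0.260). Among 16 droplet coat and growth genes, Pcyt1a rose and 15 did not pass. The 2 with the lowest p after Pcyt1a were Hsd17b11, a droplet-bound dehydrogenase, at 0.16 ± 0.06 and Mtch2, a protein of the outer mitochondrial membrane, at 0.11 ± 0.06 (SE; adjusted p-values 0.288 and 0.455).

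In lipolysis and secretion 0 of 13 genes passed by limma, and 2 reached 0.05 before adjustment, against 12.5% over the array. These were Lipa, the lysosomal acid lipase, at −0.25 ± 0.07 (SE; adjusted p = 0.160), and Abhd5, the coactivator of the Pnpla2 lipase also called CGI-58. Abhd5 had 264.8, 296, 183.5 and 244.2 in hydrogen water arrays and 333.8, 355.4, 298.2 and 373.2 in control arrays. The groups did not overlap, as at 7.48% of all tested probe sets. Hydrogen water was lower by 0.47 on the log2 scale where Pnpla2 was higher by 0.61, and neither passed (limma adjusted p = 0.183 for Abhd5). A link between these genes was not tested. Of 14 regulators and uptake genes 0 passed by limma, and 4 reached 0.05 before adjustment, against 12.5% of all tested probe sets. Ppargc1b, a coactivator of nuclear receptors in oxidative metabolism, differed by 0.90 ± 0.20 (SE; adjusted p = 0.0675) and Cebpa, a transcription factor of hepatocytes and fat cells, by −0.54 ± 0.16 (SE; adjusted p = 0.172). Among the limma fits that left out 1 array, Ppargc1b passed only without hydrogen water array 2 (adjusted p = 0.0402). Cebpa passed only without control array 3 (adjusted p = 0.0477).

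**Figure D4:**
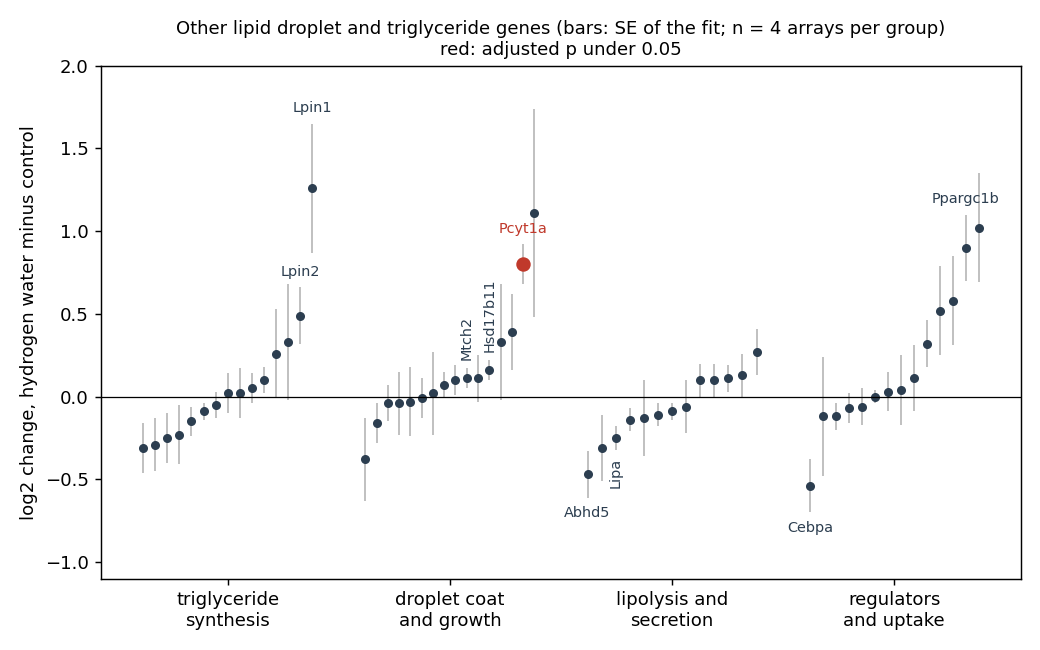
Log2 change (hydrogen water minus control) with the SE of the fit for the other lipid droplet and triglyceride genes above the filter, sorted within each of 4 lists. Pcyt1a (red, 0.80) is the gene past an adjusted p of 0.05, and the other named genes are the 2 of lowest p in each list.

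Cidea is also a fat cell gene, so markers of fat cells were read beside it. Of 9 measured adipocyte markers, 3 were above the filter (Car3, Cfd and Lipe), and 6 were not: Adipoq, Fabp4, Lep, Plin1, Ucp1 and Adrb3. The single signals of these 6 ran from 0.4 to 16.9 in hydrogen water arrays and from 0.6 to 16.3 in control arrays, at levels that cannot be set apart from background. Ucp1, the uncoupling protein that defines brown fat, had 0.4, 0.9, 0.4 and 0.7 in hydrogen water arrays and 0.6, 3.5, 0.8 and 2.3 in control arrays. The summed signal of the whole list ran from 4097 to 6739 in hydrogen water arrays and from 4593 to 7101 in control arrays, most of it from Car3, which hepatocytes make too. Without Car3 the sums ran from 179.6 to 231.4 with hydrogen water and from 197.9 to 245.3 in controls, so the ranges of the groups overlapped. Most of that sum came from Cfd and Lipe. They differed by −0.08 ± 0.12 and −0.13 ± 0.23 (SE, limma adjusted p-values 0.857 and 0.887).

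Other cell types that can hold lipid droplets in the liver were read in the same way. Of 9 measured markers of stellate cells, which store vitamin A in droplets, 7 were above the filter and 0 passed in limma, with 0 at an unadjusted p under 0.05. Of these 7 changes 6 were below 0, with a median of −0.15, against 7800 below 0 among all 15521 tested probe sets. The lowest were Pdgfrb at −0.50 ± 0.25 and Col1a1 at −0.42 ± 0.21 (SE, limma adjusted p-values 0.461 and 0.462). Dcn went the other way, at 0.30 ± 0.21 (SE, limma adjusted p = 0.640). The part of stellate cells in the Cidea difference was not tested. The summed signal of the 9 ran from 2403 to 3160.3 in hydrogen water arrays and from 2868 to 3152 in control arrays. All 9 measured macrophage markers were above the filter, 0 passed and 2 of 9 had an unadjusted p under 0.05, against 12.5% of all tested probe sets, with sums from 4049 to 4824 with hydrogen water and from 3799 to 5208 in controls. The 2 macrophage markers differed in opposite directions, Cd14 by 0.27 ± 0.08 and Lyz2 by −0.41 ± 0.15 (SE; limma adjusted p-values 0.171 and 0.268). In whole liver RNA a change in the number of cells of a type and a change in RNA per cell cannot be told apart.

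The profile of Cidea over the 8 arrays was compared with all other named probe sets above the filter by Pearson's r. Both groups enter this measure, so a gene that differs between them scores high, and no test is attached. The 5 most alike were Ppp2r2a (r = 0.979), Epas1 (0.976), Pigu (0.973), Orc2 (0.971) and Desi2 (0.961). Their changes were, in that order, 0.31 ± 0.09, 0.40 ± 0.08, 1.19 ± 0.12, 0.58 ± 0.10 and 0.18 ± 0.08 (SE). Pigu is a subunit of the enzyme that attaches lipid anchors to proteins, and Epas1 is the hypoxia-inducible factor HIF-2 alpha. The 5 most opposite were Kbtbd3 (r = −0.981), Cep70 (−0.978), Tppp (−0.964), Frg1 (−0.963) and Foxa1 (−0.960), the last a pioneer factor of liver genes. These changed, in that order, by −0.38 ± 0.13, −0.61 ± 0.16, −1.22 ± 0.13, −0.82 ± 0.18 and −0.56 ± 0.13 (SE). Among the members above the filter, r with Cidea was 0.77 and 0.71 at the Dgat2 probe sets and 0.71 at Pnpla2, and ran from −0.53 to 0.40 at the others.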

How the data were processed

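Biotin-labelled cRNA from liver, made by Affymetrix's protocol per the labels, was read on 4 hydrogen water and 4 control arrays. The deposited intensities were made by the authors with MAS5, per the submitters' processing notes. Not given in the sources used here are its version, scaling target and detection calls. The highest correlation between arrays was 0.958. The arrays had no common scale (medians from 17.2 to 26.8), so 57 control probe sets were removed, the other 31042 were quantile-normalized, and log2(signal + 2.05) was taken, where 2.05 is 10% of the median of all values. A shift of most transcripts one way would not be seen. Symbols came from the platform annotation and were checked by Entrez ID against RefSeq (GRCr8). The 15521 probe sets whose mean log2 signal reached the median were fitted across all probe sets with limma 3.58.1 in R 4.3.3 (lmFit, eBayes with a trend, Benjamini-Hochberg adjustment). Each SE of a change comes from this fit. The number of arrays limits the precision.

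The members, the gene lists and the rules were chosen with earlier results of these data known. A gene of a list was represented by its brightest probe set. Genes of the lists were named if they passed, with the 2 further genes of lowest p per list. The adipocyte, stellate cell and macrophage markers named were singled out after their values were seen. Alternatives were 5 other scalings, 2 pseudocounts, 2 filters, no trend in the prior, array weights, array brightness as a covariate, a block for replicate number, gene means for the lists, and leaving out each of the 8 arrays. The limma fit was tested on simulated independent normal log2 values, without the normalization and the filter.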

Additional observations from a re-analysis of the deposited data

Results flagged for a closer look

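Dixon's criterion was applied to 34 groups of 4 arrays, over the 17 member probe sets. In 6 of them the highest or lowest array lay far from the other 3. Independent normal values meet the criterion in about 1 of 20 groups. The groups here share arrays, and several share a gene, so that rate is no measure of an excess. How often the criterion is met over all probe sets was not counted. Hydrogen water array 3 was high at Cideb, with a log2 signal of 10.09 against 9.78 for the next array. Hydrogen water array 2 was low at Plin5 (5.40 against 5.65) and at the third Mgll probe set (7.65 against 7.85), and high at 1 Pnpla3 probe set (3.00 against 1.51), which is below the filter. Control array 4 was low at the same Mgll probe set (7.47 against 8.09). Control array 1 was high at another Pnpla3 probe set (3.27 against 1.79), also below the filter. No array of Cidea, Dgat1, Dgat2 or Pnpla2 was set apart in this way.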

How the results depend on the processing

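The Cidea difference stayed above 0 in all 21 alternatives, from 0.76 without normalization to 1.24. With 1 array left out it ran from 1.04 to 1.24, and with brightness as a covariate it was 1.23. Cidea was picked for its difference in these same arrays, so its sign over these fits is a description and no test. Of the 12 other member probe sets above the filter, 0 passed in any alternative (Plin5 was not tested among the brightest 25%). Signs of small differences turned. Without normalization this held for Cideb (−0.20), Cidec (−0.13), the dimmer Plin2 probe set (−0.32), Plin5 (−0.20), Dgat1 (−0.33) and Dgat2 (−0.03 and −0.05). Under median centring it held for the dimmer Plin2 probe set and Dgat1 (both −0.04), and under trimmed mean scaling for the same probe sets (0.00 and −0.01). The second Mgll probe set turned under spike-in scaling (0.02), with array weights (0.03) and with brightness as a covariate (0.32), where Cidec turned too (−0.09). With 1 array left out the ranges were −0.05 to 0.13 for the dimmer Plin2 probe set, −0.01 to 0.04 for Dgat1 and −0.11 to 0.11 for the second Mgll probe set. Without normalization the median change over all tested probe sets was itself −0.33, against 0 in the main fit. The causes of the turned signs were not tested. Over all probe sets 128 passed, against 505 without normalization, 64 with an untrended prior, 12 with brightness as a covariate and 55 to 197 with 1 array left out. The share of calls that were higher was 53.9%, against 4.16% without normalization, 35.0% with median centring and 70.8% with spike-in scaling. Deviations of same-numbered arrays correlated at −0.10, 0.04, 0.19 and 0.00. These values are too few to settle whether the replicate numbers pair the samples, and the labels do not say. With the replicate number as a block 181 passed in all, 0 of the 12 member probe sets other than Cidea did, and the other lipid genes gave 2 calls, Pcyt1a and Ppargc1b. That list gave 2 without normalization (Abhd5 and Cebpa), 2 under spike-in scaling, 0 with brightness as a covariate and 0 to 3 with 1 array left out, the 3 without control array 3 and the 0 without control array 4. Signals below the filter, those of Pnpla3 and of 1 Mgll probe set, set the limit of what these arrays show.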
